A study of Mus musculus with 9 samples.

Results

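The genes described here are 10 genes of dead-cell and scavenger uptake, namely the receptors Axl, Mertk, Timd4, Stab1, Cd36, Msr1, Marco, Mrc1 and Cd163 and the soluble ligand Gas6. They were chosen for their known role and found by symbol, and each symbol matched 1 of the 45535 rows of the expression table that carry a gene symbol. All 10 had a mean normalized read count of at least 10 and were tested. Expression was measured by RNA sequencing in dendritic cells bearing the integrin CD103, bead-selected from collagenase-digested lungs of C57/BL6j mice given bleomycin, a drug that injures the lung and is used to model fibrosis, for 7 days. In 5 samples RNA was taken directly (before culture). In 4 samples the cells were first held for 18 h in serum-supplemented RPMI with penicillin and streptomycin (after culture). Every sample came from treated lung, so all values below are from treated mice. Whether each sample is 1 mouse or a pool is not given, and p-values therefore measure the spread between these samples, which may be in part technical.

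Phagocytes recognise dying cells by phosphatidylserine exposed on the outer face of the plasma membrane. Some receptors bind this lipid directly, such as TIM-4 (Timd4) and stabilin-1 (Stab1), and others bind it through a bridge, such as the receptor tyrosine kinases AXL and MERTK, which use GAS6. Scavenger receptors take up modified lipoproteins, microbial surfaces and cell debris, and CD36, MSR1 and MARCO are the classical ones. Type 1 conventional dendritic cells (cDC1), the main CD103-bearing dendritic cells of the lung, are known for presenting antigen from dead cells they have engulfed, whereas MARCO, the mannose receptor MRC1 and the haemoglobin receptor CD163 are best known from macrophages.

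Depth in rows with a symbol ran from 14.7 to 28.8 M reads before and from 26.0 to 35.3 M reads after culture. All 10 listed markers of cDC1 were read, and their summed normalized count was 141263 to 170319 before and 30055 to 33298 after culture, with 8 of 10 lower and 2 higher. All 8 markers of mature dendritic cells were higher, with sums of 46441 to 49807 before and 223034 to 247425 after culture. Itgae, the gene of CD103 itself, was 10.5-fold lower after culture (18138 ± 1537 before, 1727 ± 335 after; SD, n = 5 and n = 4). Markers of endothelial cells, fibroblasts, neutrophils, epithelial cells and macrophages were read as well, so the samples held transcripts of cells other than the selected ones. In such bulk samples, fewer cells of a type and less RNA per cell cannot be told apart.

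The comparison asked how the uptake genes differ between cells taken directly and cells after culture. Cd36, Timd4, Msr1 and Mertk were higher after culture, Axl, Gas6, Mrc1 and Cd163 were lower, and Stab1 and Marco did not pass the threshold (limma, adjusted p of 0.05 over all genes tested). So 8 of 10 genes were called, 4 in each direction, where 68.8% of all 18202 tested genes were called, 34.2% higher and 34.6% lower. With shares this close to the background, the number of calls is not a property of these genes. Their median log2 fold change was 0.06, beside 0.01 over all tested genes. A change of at least 2-fold was reached by 3 genes upward (Cd36, Timd4 and Msr1; 14.1% of all tested genes) and by 2 downward (Gas6 and Cd163; 18.6%). The samples of the groups did not overlap for 7 genes, 4 with all samples after culture above those before and 3 below, where this holds for 57.3% of all tested genes (28.7% above and 28.6% below).

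**Figure D1:**
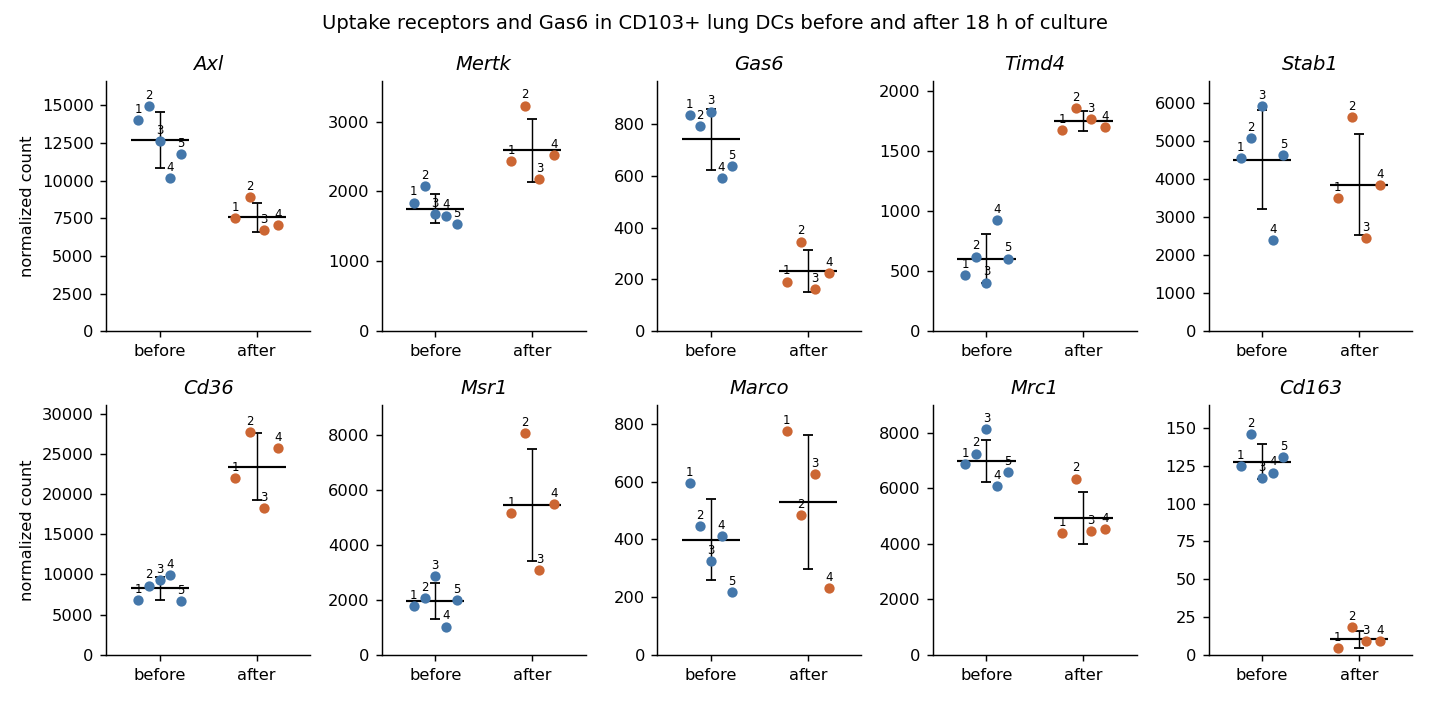
Normalized read count (vertical axis, linear, from 0) of each of the 10 genes in the 5 samples before (blue) and the 4 after culture (orange), numbered by replicate, with group mean (bar) and SD (whiskers). Points of the groups are separate for Axl, Mertk, Gas6, Timd4, Cd36, Msr1 and Cd163 and overlap for Stab1, Marco and Mrc1.

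Axl and Mertk encode sister receptors that share the ligand GAS6. Axl had normalized counts of 14012, 14952, 12618, 10174 and 11737 before and 7520, 8911, 6725 and 7044 after culture (replicates 1 to 5 and 1 to 4). Every sample after culture was below every sample before, with replicate 4 lowest before and replicate 2 highest after culture. The group means, 12699 ± 1878 and 7550 ± 964 (SD, n = 5 and n = 4), gave a 1.68-fold lower level (log2 fold change −0.75, SE 0.115, limma adjusted p = 6.68e-05). Mertk went the other way, from 1840, 2079, 1677, 1654 and 1529 before to 2434, 3230, 2177 and 2516 after culture. The groups were separate here too, though the distance between the highest sample before (2079) and the lowest after (2177) was small. Its level was 1.47-fold higher (log2 fold change 0.55, SE 0.115, limma adjusted p = 0.000773). Tyro3, the other member of this receptor family, was barely read, with 42.9 ± 12.8 before and 44.1 ± 12.5 after culture (adjusted p = 0.862 in limma).

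Because Axl fell and Mertk rose, the balance between them shifted. Divided by exon length (5.033 kb for Axl and 4.336 kb for Mertk), Axl made up 86.8, 86.1, 86.6, 84.1 and 86.9% of the sum of both before culture and 72.7, 70.4, 72.7 and 70.7% after it. The share after minus before culture was −14.5 percentage points (71.6 ± 1.25% against 86.1 ± 1.14%, SD). The separate ranges of Axl and of Mertk fix that these shares do not overlap, so the difference is given as a description, with no test. Axl stayed above Mertk in every sample, at 6.23 ± 0.545 times its level per kilobase before and 2.53 ± 0.155 times after culture (SD, n = 5 and n = 4).

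Gas6, the bridge between phosphatidylserine and both receptors, fell with Axl. Its values were 836, 791, 848, 590 and 639 before and 192, 346, 163 and 224 after culture. The groups did not overlap, and replicate 2 after culture was the highest of its group, as it was for Axl and Mertk. Gas6 was 3.21-fold lower after culture (741 ± 118 against 231 ± 80.8, log2 fold change −1.72, SE 0.189, limma adjusted p = 2.80e-06). On the annotation 34 of its exon bases, or 1.33%, are shared with Tmem255b on the opposite strand, and whether reads were counted by strand is not given in the sources used here. Pros1, which encodes protein S, a bridging ligand of MERTK, was 2.97-fold lower (1373 ± 173 against 461.7 ± 52.9, adjusted p = 2.70e-08 in limma). Mfge8, which bridges phosphatidylserine to integrins, was 1.62-fold lower (3079 ± 195 against 1903 ± 222).

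The sequences just upstream of the transcription start of members that moved in opposite directions are shown for Axl and Mertk, the sister receptors, and for Timd4 and Mrc1, the members with a rise of at least 2-fold and with a fall that had matches to a searched motif. They are the 250 bases before the RefSeq start on GRCm38.p6, 5′ to 3′ on the gene's strand, with matches in capitals. Axl is at chr7:25788734-25788983 (minus strand), Mertk at chr2:128698665-128698914 (plus), Timd4 at chr11:46810549-46810798 (plus) and Mrc1 at chr2:14229164-14229413 (plus).
Axl: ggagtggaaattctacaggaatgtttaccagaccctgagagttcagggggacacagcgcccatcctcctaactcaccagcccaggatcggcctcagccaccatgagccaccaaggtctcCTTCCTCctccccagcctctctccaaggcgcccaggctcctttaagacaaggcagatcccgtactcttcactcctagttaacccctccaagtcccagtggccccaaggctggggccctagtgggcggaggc
Mertk: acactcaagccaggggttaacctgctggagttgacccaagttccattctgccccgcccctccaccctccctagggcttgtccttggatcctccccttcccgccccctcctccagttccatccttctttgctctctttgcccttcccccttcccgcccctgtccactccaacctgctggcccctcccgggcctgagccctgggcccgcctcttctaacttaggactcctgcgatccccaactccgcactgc
Timd4: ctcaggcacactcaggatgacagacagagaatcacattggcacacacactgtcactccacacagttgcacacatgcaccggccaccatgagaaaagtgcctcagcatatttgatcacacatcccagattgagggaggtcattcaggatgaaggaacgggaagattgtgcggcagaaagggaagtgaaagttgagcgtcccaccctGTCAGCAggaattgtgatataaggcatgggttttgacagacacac
Mrc1: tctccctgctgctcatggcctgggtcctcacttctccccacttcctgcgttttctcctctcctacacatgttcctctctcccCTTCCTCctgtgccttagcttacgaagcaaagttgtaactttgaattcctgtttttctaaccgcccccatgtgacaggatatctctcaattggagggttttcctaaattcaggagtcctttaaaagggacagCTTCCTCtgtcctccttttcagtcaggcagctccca
Capitals in Axl and Mrc1 mark GAGGAAG, a core bound by the myeloid factor PU.1, read here on the opposite strand. It occurred 1 time in the Axl and 2 times in the Mrc1 window, was also found upstream of Marco, and is present in 10.6% of the 32851 mouse promoter windows of this length. The capitals in Timd4 mark TGCTGAC, part of the site bound by MAF factors, again on the opposite strand, which 3.81% of windows hold. Of the 10 genes 9 had a window in the table, and no match to the searched letters was found upstream of Mertk, Gas6, Cd36, Stab1 and Cd163. The other letters searched on both strands, found in none of the 9 windows, were the core promoter box TATAAA (in 12.4% of all windows), the AP-1 site TGANTCA (6.75%), the E-box CACGTG (6.02%), the antioxidant response element TGACNNNGC (10.2%), and, by name alone, the interferon response element (2.98%), the NF-kB site (1.21%) and the direct repeats bound by PPAR (0.0335%) and LXR (0.0152%). The GC content of the 4 windows shown ran from 49.6% in Mrc1 to 63.6% in Mertk, against a median of 52.4% over all windows.

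Timd4 encodes TIM-4, which tethers apoptotic cells through phosphatidylserine. It had 467, 622, 405, 926 and 605 before and 1677, 1857, 1767 and 1700 after culture. All samples after culture were above all samples before, and the spread was smaller after culture (coefficient of variation 4.64% against 33.3%), with replicate 4 the highest of the uncultured samples. The level was 2.89-fold higher (605 ± 201 against 1750 ± 81.1, log2 fold change 1.59, SE 0.182, limma adjusted p = 3.98e-06). Timd4 (chromosome 11, 46810800 to 46844332 on GRCm38) lies in a stretch with the other TIM genes, in the order Havcr2, Timd2, Havcr1 and Timd4. Havcr1 (TIM-1) was 3.60-fold higher (85.5 ± 19.5 against 307.7 ± 51.6, adjusted p = 6.34e-07 in limma). Timd2 (TIM-2) was at 0 to 4 reads before and 64 to 127 reads after culture, and passed the test. Havcr2 (TIM-3), a receptor that cDC1 carry, was 4.84-fold lower (3799 ± 300 against 784.5 ± 130, adjusted p = 4.99e-10 in limma). Of the 50-base windows of the Havcr1 transcript 5.30% also occur in other genes, Timd2 first among them, while Timd4 shares none.

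Stab1 encodes stabilin-1, a very large receptor for phosphatidylserine and modified lipoproteins found on macrophages and endothelium. Its values were 4535, 5076, 5903, 2383 and 4618 before and 3497, 5615, 2438 and 3838 after culture. The groups overlapped over most of their range, and 1 sample of each group, replicate 4 before and replicate 3 after culture, was low. Both carry number 4 in the library names. The difference did not pass the threshold (log2 fold change −0.23, SE 0.25, limma adjusted p = 0.433). Leaving out 1 sample gave log2 fold changes from −0.44 (without replicate 4 before culture) to −0.03 (without replicate 3 after culture), with adjusted p from 0.054 to 0.914. Of its exon bases 1.09% are shared with Nt5dc2 on the opposite strand.

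CD36 is a receptor for oxidised lipoproteins, long-chain fatty acids and apoptotic cells. Cd36 had normalized counts of 6854, 8628, 9302, 9943 and 6711 before and 22027, 27748, 18212 and 25695 after culture. The lowest cultured sample was well above the highest uncultured one. The level rose 2.83-fold (8287 ± 1451 against 23421 ± 4202, log2 fold change 1.5, SE 0.142, limma adjusted p = 6.59e-07), and 7.49% of all tested genes had a larger log2 fold change.

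Msr1 encodes scavenger receptor A, a trimeric receptor for modified lipoproteins and bacterial surfaces. It had 1781, 2054, 2869, 1028 and 1990 before and 5141, 8058, 3078 and 5472 after culture. The groups were separate, but the highest sample before (2869) and the lowest after culture (3078) were close, and the spread was wide in both groups (coefficient of variation 33.9% and 37.6%). Msr1 was 2.80-fold higher (1944 ± 659 against 5437 ± 2043, log2 fold change 1.48, SE 0.276, limma adjusted p = 0.000331). Marco, a scavenger receptor with the same type of cysteine-rich domain and a hallmark of alveolar macrophages, had 595, 447, 325, 411 and 217 before and 774, 483, 627 and 230 after culture. The ranges overlapped, with replicates 1 and 3 after culture above every uncultured sample and the other 2 within the uncultured range, and the difference did not pass the threshold (399 ± 141 against 528 ± 232, log2 fold change 0.35, SE 0.325, limma adjusted p = 0.354). Without replicate 4 after culture, the low one, the log2 fold change was 0.70 and passed (adjusted p = 0.0358). Over the 9 fits without 1 sample the adjusted p ran from 0.0358 to 0.764.

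MRC1 binds mannose-rich sugars and takes up glycoproteins. Mrc1 had 6860, 7250, 8137, 6086 and 6582 before and 4375, 6348, 4470 and 4531 after culture. Only replicate 2 after culture reached into the range of the uncultured samples, and the other 3 lay below it. The level was 1.42-fold lower (6983 ± 772 against 4931 ± 947, log2 fold change −0.51, SE 0.116, limma adjusted p = 0.00142). CD163 clears haemoglobin bound to haptoglobin. Cd163 had 125, 146, 117, 121 and 131 before and 4.42, 18.2, 9.10 and 9.12 after culture, which were 73 to 144 reads before and 5, 24, 10 and 12 reads after. The groups were far apart, and the cultured samples rest on few reads, so the size of the fall is less certain than its direction. Cd163 was 12.5-fold lower (127.7 ± 11.5 against 10.2 ± 5.77, log2 fold change −3.66, SE 0.299, limma adjusted p = 1.44e-07), and 1.90% of all tested genes had a larger fall. With a pseudocount of 8 in place of 1 its log2 fold change was −2.95.

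**Figure D2:**
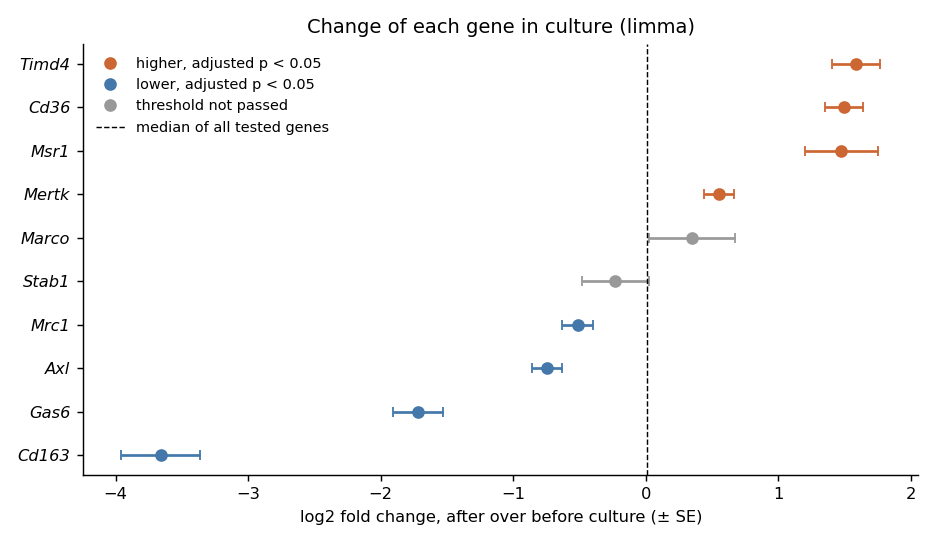
Log2 fold change (horizontal axis, after over before culture) with its standard error for each of the 10 genes; orange marks genes higher and blue genes lower at a limma adjusted p under 0.05, grey those that did not pass, and the dashed line is the median of all tested genes. Values run from −3.66 for Cd163 to 1.59 for Timd4, with Stab1 and Marco in grey near the line.

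Levels can be compared between genes only per length of transcript, so normalized counts were divided by the exon length of each gene in kilobases. This is the length of all annotated exons of a gene, merged, which can exceed that of its longest transcript. For Msr1 it was 6344 bases against 3636 in the longest transcript, and for Axl 5033 against 4265. The order and the shares below hold for this length, and their dependence on it was not tested. Before culture Axl (2523 ± 373 per kb) and Cd36 (2308 ± 404 per kb) had the highest levels, and their ranges over samples overlapped. Mrc1 followed at 1096 ± 121 per kb, separate from its neighbours above and below. Stab1, Mertk, Msr1, Gas6, Timd4 and Marco came next, from 437.7 down to 207 per kb, and each overlapped its neighbour in that order. Cd163 was last at 23.4 ± 2.10 per kb. After culture Cd36 led alone at 6524 ± 1170 per kb, Axl was next at 1500 ± 192 per kb, and neither overlapped its neighbours. Below them came Msr1 (857 per kb), Timd4 (805), Mrc1 (774), Mertk (597), Stab1 (374), Marco (275) and Gas6 (90.7), and neighbours among these overlapped. Cd163 was last at 1.87 per kb, separate from Gas6.

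Read as shares of the summed level per kilobase of the 10 genes, Axl held 32.0 ± 3.51% and Cd36 29.3 ± 4.97% before culture, and 12.8 ± 1.05% and 55.2 ± 2.75% after it (SD, n = 5 and n = 4). Mrc1 went from 13.9 ± 0.947% to 6.58 ± 0.7%, while Mertk held 5.14 ± 0.390% and 5.06 ± 0.212%. The summed level was 7015 to 8664 per kb before and 9540 to 14302 per kb after culture, and the level of Cd36 alone rose by more than the mean of that sum did. These shares are a description and were not tested.

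**Figure D3:**
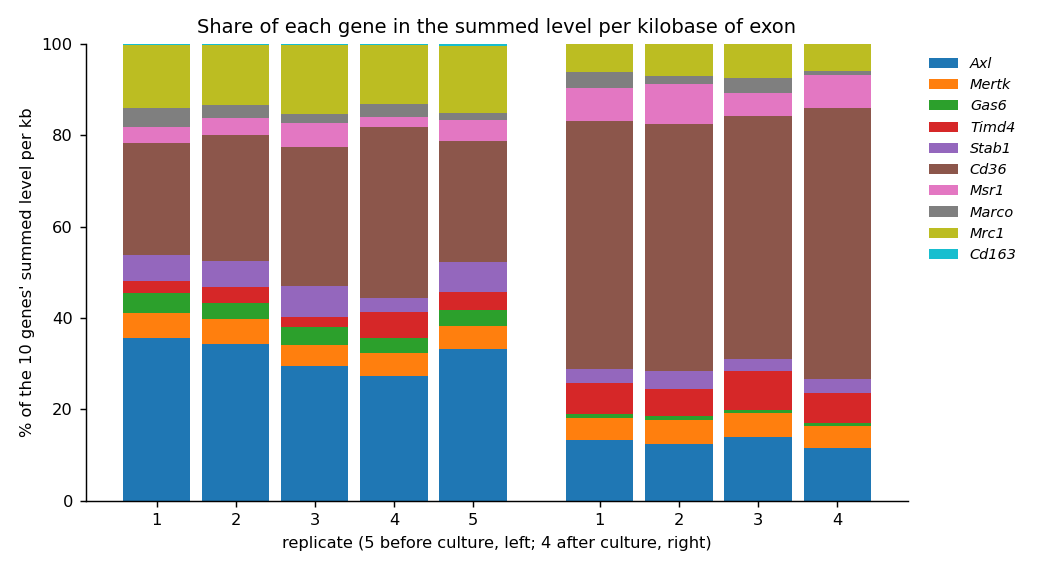
Share of each of the 10 genes in their summed normalized count per kilobase of exon (vertical axis, percent, from 0 to 100) in the 5 samples before and the 4 after culture, 1 stacked bar per sample. Axl and Cd36 take similar shares before culture, and Cd36 holds 55.2 ± 2.75% after it.

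Samples of 1 group differed in the same way for several of the genes. Replicate 2 after culture was the highest of its group for 9 of the 10 genes, all but Marco, where it is the highest for 33.0% of all tested genes. Replicate 3 after culture was the lowest for 6 (Axl, Mertk, Gas6, Cd36, Stab1 and Msr1; 33.7% of all tested genes). Before culture, replicate 4 was the lowest for 5 (Axl, Gas6, Stab1, Msr1 and Mrc1; 30.4%) and the highest for Cd36 and Timd4. The markers of monocytes and interstitial macrophages moved with these differences. Their summed normalized count was 49600, 54859, 57275, 33469 and 46352 before and 30347, 44342, 19985 and 33016 after culture, with the same samples lowest and the same sample after culture highest. Before culture, replicate 3 was highest for this sum and for Stab1, Msr1, Gas6 and Mrc1. In the library names, replicate 4 before and replicate 3 after culture both carry number 4. Replicate 3 before and replicate 2 after culture both carry number 3. Whether equal numbers mean a shared origin is not given. Of the other marker lists, only that of type 2 dendritic cells had a sum lowest and highest in the same samples in both groups. The sums of the uptake pathway lists given below had these samples lowest and highest too, except engulfment signalling. Those sums are not independent of the macrophage list, since the bridging molecules include the C1q genes. Abundant genes also weigh most in them, such as Thbs1 among bridging molecules (mean 46084 before culture) and Lrp1 among apoptotic-cell receptors (43416). The alveolar macrophage sum differed, being lowest in replicate 5 before (29619) and highest in replicate 3 after culture (24294). The mature dendritic cell sum after culture was lowest in replicate 2 (223034) and highest in replicate 3 (247425). For cDC1 the sum after culture was lowest in replicate 2 (30055) and highest in replicate 4 (33298). The part of any of these cells in the spread of the uptake genes was not tested.

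**Figure D4:**
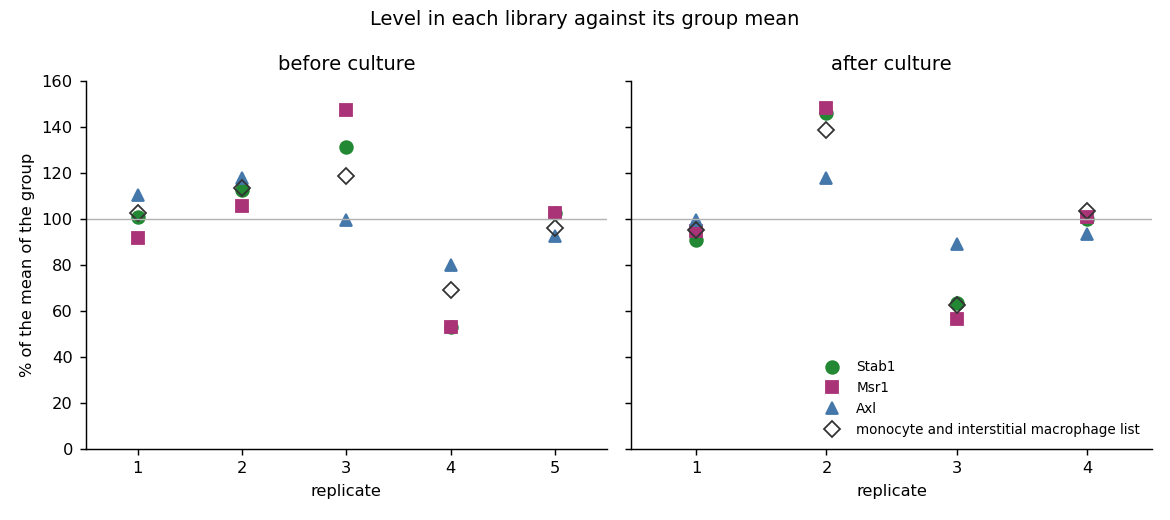
Level of Stab1, Msr1, Axl and the summed markers of monocytes and interstitial macrophages in each sample, as a percent of the mean of its group (vertical axis, from 0), before (left) and after culture (right). Stab1, Msr1 and the marker sum are lowest in replicate 4 before and replicate 3 after culture and highest in replicate 3 before and replicate 2 after. Replicates are numbered by title, and by library name these lowest samples carry number 4 and these highest samples number 3.

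Other cell types that can carry these receptors were followed through marker lists without any of the 10 genes. Of the 13 markers of monocytes and interstitial macrophages all were tested, 2 were higher and 6 lower after culture (list median −0.30), and none was at 0 throughout a group. Without replicate 3 after culture 4 were higher. Their sum was 33469 to 57275 before and 19985 to 44342 after culture, so the groups overlapped. Csf1r (11801 ± 2414 against 14883 ± 3908) and Adgre1 (3236 ± 706 against 4450 ± 1344), chosen for mention after their values were seen, did not pass the threshold. Of 12 markers of alveolar macrophages 11 were tested, 3 were higher and 8 lower (median −1.14), with sums of 29619 to 41142 before and 18533 to 24294 after culture. Car4 fell from 973 ± 237 to 14.4 ± 1.85 and Plet1 from 10549 ± 1649 to 1200 ± 382, while Fabp4 was 3.65-fold higher. All 10 endothelial markers were lower (median −3.83), with sums of 21859 to 32293 before and 2405 to 3370 after culture. All 10 fibroblast markers (median −3.00) and all 9 epithelial markers (median −2.37) were lower as well, as were 7 of 8 neutrophil markers (median −4.53) with Mmp8 higher. Of the 5 markers of type 2 conventional dendritic cells 4 were lower (median −2.31), and of the 8 lymphocyte markers 1 was higher and 3 were lower (median −0.09). The neutrophil sum was 13183 to 22684 before and 6906 to 14833 after culture, so the groups overlapped. The sum of the type 2 dendritic cell markers overlapped too, at 18516 to 25092 before and 14383 to 24422 after culture. The single higher lymphocyte marker was lost without replicate 1 or 3 before culture or replicate 3 or 4 after culture, and 2 were higher without replicate 2 after culture. Without replicate 3 after culture 1 marker of type 2 dendritic cells was higher. Cd163, Gas6, Axl and Mrc1 thus fell while the endothelial and fibroblast sums fell, and Cd36, Timd4, Msr1 and Mertk rose while they fell. What these cells contributed to the level of each gene was not tested.

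The rest of the uptake pathway was read from 7 lists with 84 genes, of which 81 were tested. Among them 26 were higher, 33 lower and 22 not past the threshold, beside 34.2% and 34.6% of all tested genes, and the median log2 fold change was 0.01. Of the 8 bridging molecules 2 were higher and 5 lower (median −1.05). Lgals3, which encodes galectin-3, was 3.48-fold higher (12208 ± 1745 against 42520 ± 11114), and Edil3, a phosphatidylserine-binding bridge to integrins, 3.28-fold higher. The lower ones were Pros1, Mfge8 and the 3 genes of complement C1q (chosen for mention after their values were seen), which are also on the macrophage marker list and whose groups overlapped.

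Of 16 other receptors for dying cells 15 were tested, 4 higher and 7 lower (median −0.28). Clec9a, the cDC1 receptor for actin exposed by dead cells, was 8.75-fold lower (2756 ± 286 against 315.1 ± 27.8, adjusted p = 9.87e-12 in limma). Ager was 3.70-fold lower, and Cd300lb, a phosphatidylserine-binding receptor of myeloid cells, 3.23-fold higher. Of 13 other scavenger receptors 12 were tested, 4 higher and 6 lower (median −0.79). Cd14, the co-receptor for bacterial lipopolysaccharide, was 11.6-fold lower, Scarb1, which takes up lipid from high-density lipoprotein, 3.61-fold lower, and Cd68, a late endosomal protein, 1.84-fold higher.

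Among 14 genes of engulfment signalling 4 were higher and 6 lower (median 0.03). Vav3 was 1.95-fold higher and Trio 2.33-fold lower. Among 14 genes of sterol sensing and lipid export 5 were higher and 3 lower (median 0.12). Lipa, the lysosomal acid lipase that frees cholesterol and fatty acids from engulfed lipid, was 5.78-fold higher (5334 ± 472 against 30809 ± 4848, adjusted p = 2.33e-10 in limma). Npc2, which carries cholesterol out of the lysosome, was 2.72-fold higher. Nr1h3 (LXR alpha) was 1.59-fold higher with overlapping groups, and Pparg was at 542 ± 70.3 and 547 ± 17.2 (adjusted p = 0.864 in limma). Abca1, which exports cholesterol, was 1.67-fold higher with overlapping groups (adjusted p = 0.0203 in limma) and did not pass without replicate 2 (0.0639) or replicate 4 after culture (0.0517).

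Among 6 signals against engulfment and their receptors 2 were higher and 3 lower (median −0.12). Cd47 was 1.36-fold higher, Cd24a was 2.79-fold lower, and Pirb was 2.44-fold higher, though 37.3% of the windows of its transcript are shared with other genes. Sirpa, the gene of the CD47 receptor, did not pass (log2 fold change 0.34, adjusted p = 0.0611 in limma), but passed with edgeR (0.046), DESeq2 (0.031), upper quartile (0.0189) or quantile scaling (0.0206), sample weights (0.0216) and without replicate 3 after culture (0.00239). Among 13 regulators of these receptors 12 were tested, 5 higher and 3 lower (median −0.04). Adam17 and Adam10, whose proteases cut MERTK and AXL from the cell surface, were 1.57-fold and 1.92-fold higher (adjusted p = 6.69e-05 and 8.86e-07 in limma). Socs3, an inhibitor of cytokine signalling, was 13.4-fold lower.

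**Figure D5:**
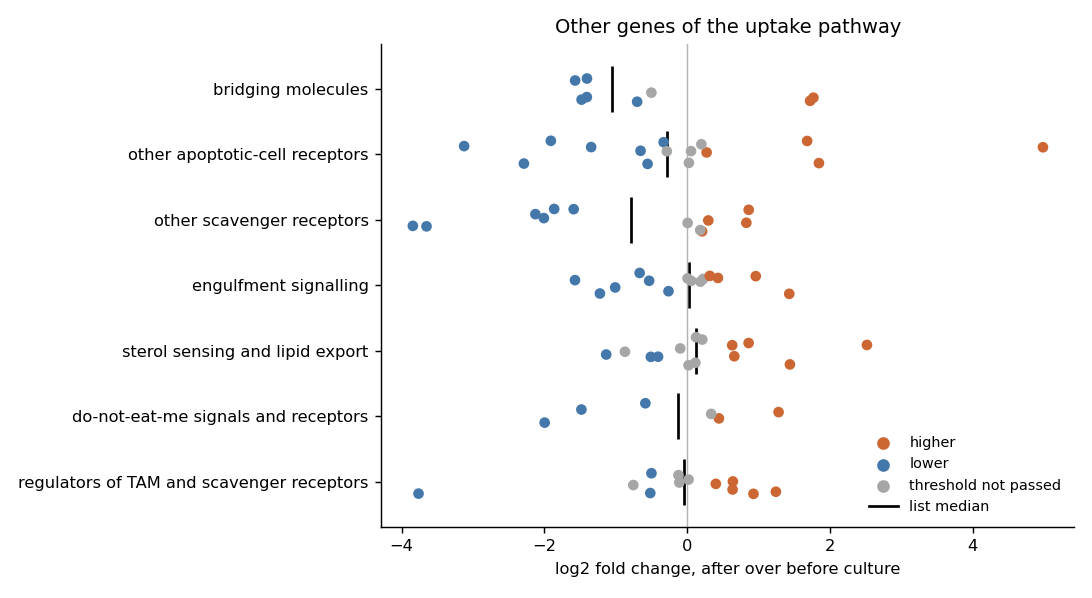
Log2 fold change (horizontal axis, after over before culture) of the 81 tested genes of the 7 lists of the uptake pathway, 1 point per gene, with orange for higher and blue for lower at a limma adjusted p under 0.05, grey for the others and a black bar at the list median. Genes of each list lie on both sides of 0, and medians run from −1.05 for bridging molecules to 0.12 for sterol sensing and lipid export.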

How the data were processed

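Total RNA of bead-selected CD103-positive lung dendritic cells was sequenced, 5 samples before and 4 after culture, placed by their titles. The authors deposited 1 table of gene-level normalized counts, treated here as a signal (values from 0 up). The submitters' processing notes name DESeq2 and GRCm38, with no role. Aligner, counting tool, annotation and strandedness are not given in the sources used here. All values (100%) were whole multiples of the value of 1 read (0.758 to 1.79, tolerance 1e-06), so whole reads were recovered. The 3782 rows without a symbol (3.87 to 10.9% of reads) were left out.

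Genes with a mean of at least 10 (18202) were put on a log2(value + 1) scale and fitted by limma 3.58.1 under R 4.3.3 (group only, mean-variance trend, two-sided, Benjamini-Hochberg over all genes). Log2 fold changes are on that scale, and folds are ratios of group means. Alternatives included edgeR 4.0.16 and DESeq2 1.42.0 on the recovered reads. edgeR's quasi-likelihood test called 6184 genes higher and 6378 lower. Scripts were tested on simulated data. Exon lengths (all annotated exons of a gene, merged), loci and shared 50-base windows came from GENCODE M21 (GRCm38), and promoters from RefSeq. Errors are the spread between samples, since counting error alone would understate them.

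The 10 genes, the lists and the rule for named genes were set with earlier results of these data known. The rule names the 10 genes, up to 3 genes per list by adjusted p, up to 3 against the list's majority, and 11 fixed genes. Not all are printed.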

Additional observations from a re-analysis of the deposited data

Results flagged for a closer look

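In 22 groups of values (the 10 genes and the share of Axl, each before and after culture) 2 held a sample far from the others by Dixon's criterion, which chance alone meets in about 1 of 20 groups. Mrc1 in replicate 2 after culture was 6348, with the other cultured samples at 4375 to 4531. The share of Axl in Axl plus Mertk in replicate 4 before culture was 84.1%, with the other uncultured samples at 86.1 to 86.9%. Without these samples the log2 fold change of Mrc1 was −0.64 and the difference in the share of Axl was −15.0 percentage points.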

How the results depend on the processing

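The 8 called genes kept their direction and their call in the 9 fits that left out 1 sample and in the 10 other fits with all samples (pseudocounts of 0.5 and 8, no filter, a minimum mean of 50, TMM, upper quartile and quantile scaling, edgeR, DESeq2 and sample weights). Stab1 passed in none of them, and Marco passed in 1, without replicate 4 after culture. When 1 sample was left out, log2 fold changes ran from 0.12 to 0.70 for Marco, and the difference in the share of Axl from −15.0 to −14.1 percentage points. Quantile scaling moved the median of all tested genes to 0.10, and its split of calls was 7056 higher and 5768 lower, against 6225 and 6299.

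Replicate numbers appear in the titles and, differently, in the library names. With title numbers the deviations of same-numbered samples from their group means correlated at −0.213 to 0.0807, and with library name numbers at 0.0447 to 0.349, so neither set met the rule that all 4 pairs exceed 0.1. By library name, each cultured sample correlated best with its own number, as did 3 uncultured samples. With the library name number as a replicate block, Marco passed (log2 fold change 0.41, limma adjusted p = 0.0045), the other 9 calls did not change, and 6390 genes were higher and 6446 lower. With the title number block they were 5761 and 5885, with the 10 calls as in the fit without a block. The share of Axl differed by −14.3 (title) and −14.5 (library name) percentage points in paired form. By library name, Stab1, Msr1 and Marco had the 4 shared numbers in the same order in both groups, which held for 8.70% of tested genes.

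Near 0, Tyro3 changed sign with the title (−0.0727) and library name block (−0.0321) and ran from −0.123 to 0.171 when 1 sample was left out; Pparg was −0.0355 with the title block, −0.000948 with sample weights, and −0.0355 to 0.0783 with 1 sample left out. The cause was not tested. Sirpa passed with upper quartile or quantile scaling, edgeR, DESeq2, sample weights, the library name block or without replicate 3 after culture. The 2 higher markers of monocytes and macrophages became 4 without replicate 3 after culture and 5 with the library name block. The markers of type 2 dendritic cells held 0 or 1 higher gene, and lymphocyte markers 0 to 2. Depth limits Cd163 after culture and Timd2 before it.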

Other observations

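The macrophage markers that moved did not all move one way. Among alveolar macrophage markers, Atp6v0d2, a subunit of the lysosomal proton pump, was 3.63-fold higher after culture (1838 ± 463 against 6664 ± 204; SD, n = 5 and n = 4) and Ctsk, which encodes cathepsin K, was 3.16-fold higher (1399 ± 367 against 4419 ± 1048), while Car4 was 67.6-fold lower. Among markers of monocytes and interstitial macrophages, Ms4a7 was 3.34-fold higher and Pf4, the gene of a platelet and macrophage chemokine, 9.26-fold higher (62.5 ± 30.6 against 578.7 ± 358). Ccr2, the receptor that brings monocytes into tissue, was 5.49-fold lower, and Lyve1, a hyaluronan receptor of some interstitial macrophages and of lymphatic endothelium, was 9.31-fold lower (1571 ± 101 against 168.8 ± 57.4). For each of these 7 genes the samples before and after culture were separate, and each passed an adjusted p of 0.05 in limma.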
